A study of Rattus norvegicus with 10 samples.

Results

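Regulators of G-protein signalling (RGS proteins) were represented by 6 genes, Rgs2, Rgs4, Rgs5, Rgs16, Rgs17 and Rgs20, among the 1319 genes analysed in rat lung. The members were every gene with an Rgs symbol in the authors' deposited table, whose genes were themselves selected by an unadjusted p-value under 0.05 for mutant against wild type. The difference between genotypes therefore chose these genes and is given as a description, without a test. A list of the Rgs family held 23 symbols, among them Rgs7bp and Rgs9bp, which are named for binding RGS proteins. The other 17 symbols were not among the listed genes and were not analysed here. The family as a whole therefore cannot be described from these values.

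RNA was sequenced from lungs of Sprague Dawley rats, an outbred strain, at 8 weeks of age. There were 5 libraries from Cmg2-KO rats, which lack Cmg2 (also called Antxr2, the gene for a membrane receptor that binds matrix proteins and anthrax toxin), and 5 from wild-type (WT) rats, with no treatment given in the labels. The sources used here do not say how the deletion was made, which exons it removed or whether each library came from its own animal, so any p-value measures only the spread between these libraries. Values are scaled counts, the authors' read counts divided by 1 size factor per library, in which 1 read was worth between 0.869 and 1.11.

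Libraries held 1386578 to 1531531 scaled counts in the listed genes. Whole reads were taken from 9 of them, all but WT 4, and came to 1289524 to 1620198. The total depth is unknown. Antxr2 was not among the listed genes, all of which had an unadjusted p under 0.05 in the authors' deposited table. Whether it was untested, unnamed or not different there cannot be told. The genotype labels thus had no check from the targeted transcript. Lung markers were present, with the club cell gene Scgb1a1 between 84205 and 175952 scaled counts in Cmg2-KO and between 143906 and 195238 in WT, and the surfactant gene Sftpb between 42133 and 48747 in Cmg2-KO and between 45665 and 65237 in WT.

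RGS proteins switch off signalling from G protein-coupled receptors. A receptor that has bound its ligand loads GTP onto the G protein alpha subunit, and the RGS domain speeds the hydrolysis of that GTP, which ends the signal to enzymes such as phospholipase C and adenylyl cyclase. Rgs2, Rgs4, Rgs5 and Rgs16 encode small proteins that are little more than an RGS domain with a membrane-binding end. Rgs17 and Rgs20 belong to another subfamily, best known from brain, whose members act on Gz and Gi. In smooth muscle of vessels and airways, such proteins limit contraction driven by receptors that couple to Gq.

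Of the 6 genes, 4 lie on chromosome 13, which holds 49 of the 1319 listed genes (3.71%). Where the rest of the Rgs family lies was not compared, so nothing is read from this share. Coordinates are those of the authors' table, and the sources used here do not name its genome build. Rgs5 (13, 87966758 to 88003035, plus strand) and Rgs4 (13, 88054817 to 88061108, minus strand) are neighbours that point towards each other across 51.8 kb with 0 RefSeq genes between them. Rgs16 (13, 71179910 to 71185216, plus strand) and Rgs2 (13, 60846308 to 60849094, minus strand) lie farther away on the same chromosome. Rgs17 is on chromosome 1 (42492761 to 42587721, minus strand) and Rgs20 on chromosome 5 (14415606 to 14494756, plus strand). No listed gene overlapped any of the 6 (0 genes).

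The promoters of the chromosome 13 members are shown because these genes carry nearly all of the reads and were lower together in Cmg2-KO. Each is given 5′ to 3′ in the direction of the gene, from 250 bases before to 50 bases after the RefSeq start on the GRCr8 assembly, whose coordinates differ from those of the authors' table. Capitals mark matches on either strand to TATAAA (the element bound by the TATA-binding protein), CCAAT (bound by NF-Y), GGGCGG (bound by Sp factors), CGTCA (a half-site for cAMP response factors) or CACGTG (an E-box for clock factors), motifs that were taken after the sequences were seen. No match overlapped another.
Rgs2: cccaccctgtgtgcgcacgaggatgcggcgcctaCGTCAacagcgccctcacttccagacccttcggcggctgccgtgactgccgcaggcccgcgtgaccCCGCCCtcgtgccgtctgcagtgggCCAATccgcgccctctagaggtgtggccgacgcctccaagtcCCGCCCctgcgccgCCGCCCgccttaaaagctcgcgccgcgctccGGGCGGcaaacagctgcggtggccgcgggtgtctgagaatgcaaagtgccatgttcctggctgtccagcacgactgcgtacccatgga
Rgs4: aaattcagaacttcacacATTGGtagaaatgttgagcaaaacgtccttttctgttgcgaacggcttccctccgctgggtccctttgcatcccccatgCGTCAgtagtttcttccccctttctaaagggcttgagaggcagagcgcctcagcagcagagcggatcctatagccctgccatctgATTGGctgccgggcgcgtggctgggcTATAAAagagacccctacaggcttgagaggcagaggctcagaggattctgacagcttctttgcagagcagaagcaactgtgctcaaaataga
Rgs5: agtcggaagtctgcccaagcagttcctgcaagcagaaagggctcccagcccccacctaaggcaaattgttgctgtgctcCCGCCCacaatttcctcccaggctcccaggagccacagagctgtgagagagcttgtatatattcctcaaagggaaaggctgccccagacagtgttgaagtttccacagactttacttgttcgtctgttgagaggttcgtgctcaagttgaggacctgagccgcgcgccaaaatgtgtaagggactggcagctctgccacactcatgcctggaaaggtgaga
Rgs16: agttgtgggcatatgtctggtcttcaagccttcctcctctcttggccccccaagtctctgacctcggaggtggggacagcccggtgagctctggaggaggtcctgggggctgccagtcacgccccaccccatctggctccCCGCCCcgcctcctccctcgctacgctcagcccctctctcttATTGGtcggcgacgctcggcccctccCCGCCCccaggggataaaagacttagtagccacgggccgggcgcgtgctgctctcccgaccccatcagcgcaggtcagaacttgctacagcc

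The intervals on GRCr8 are chr13:58352617-58352916 (minus strand) for Rgs2, chr13:84475835-84476134 (minus strand) for Rgs4, chr13:84380827-84381126 (plus strand) for Rgs5 and chr13:68437870-68438169 (plus strand) for Rgs16. TATAAA was found once, in Rgs4, 42 bases before the start, and 14.2% of 33469 RefSeq rat promoters of the same length hold it. GGGCGG occurred 4 times in Rgs2, 2 times in Rgs16, once in Rgs5 and not in Rgs4 (33.1% of all promoters hold it). CCAAT occurred 2 times in Rgs4, once in Rgs2 and once in Rgs16 (37.5% of all), and CGTCA once each in Rgs2 and Rgs4 (21.2% of all). CACGTG was in none of the 4 (6.42% of all). The base composition also differed, with 69.7% G and C in the Rgs2 promoter and 66.3% in that of Rgs16, against 54.3% in Rgs5 and 52.7% in Rgs4. These letter matches are a description of the windows and were not set against the expression values.

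All 6 genes had a lower mean log2 level in Cmg2-KO than in WT lung, where 51.8% of the listed genes did. Their median log2 fold change was -0.78, beside -0.15 over the 1319 listed genes. For none of the 6 did all 5 Cmg2-KO libraries lie below all 5 WT libraries (0 of 6), a pattern shown by 7.05% of the listed genes. Of the 6, 0 passed 0.05 by the adjusted p-values of the authors' deposited table, where 5.46% of listed genes passed and 2.35% passed as lower. Nor did any pass in limma over the whole table, where 0.229% of tested genes passed. Since the same contrast chose the genes, nothing is read from these counts. In a bulk tissue, fewer cells of a type and less RNA per cell cannot be told apart.

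Rgs2, whose product acts mainly on Gq and restrains vasoconstrictor signalling, had 586, 379, 704, 573 and 567 scaled counts in Cmg2-KO libraries 1 to 5, against 717, 938, 529, 537 and 1299 in WT libraries 1 to 5. The genotypes overlapped: WT 3 and WT 4 lay inside the Cmg2-KO range, and WT 5 stood highest by a wide margin. The means were 562 ± 117 in Cmg2-KO and 804 ± 323 in WT (SD, n = 5 each), and their ratio was 0.698. The log2 fold change was -0.46 ± 0.25 (SE) with all libraries and -0.26 ± 0.21 without WT 5. In the authors' deposited table the p-value that selected Rgs2 was 0.0350, and 0.673 after adjustment.

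Rgs5, a gene long used as a marker of pericytes and vascular smooth muscle, had 569, 509.6, 603, 399.9 and 517 scaled counts in Cmg2-KO libraries 1 to 5, against 587, 801, 612, 604 and 1033 in WT libraries 1 to 5. Of the Cmg2-KO libraries, 4 lay below every WT library, and Cmg2-KO 3 was the exception, at the level of WT 1, WT 3 and WT 4. The means were 520 ± 77.1 in Cmg2-KO and 727 ± 192 in WT (SD, n = 5 each), and the log2 fold change was -0.46 ± 0.17 (SE), or -0.33 ± 0.13 without WT 5. The authors' deposited table gave Rgs5 a p-value of 0.00559, or 0.345 adjusted.

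Rgs4, which acts on Gi and Gq and is best studied in brain and heart, had 165, 112, 120, 179 and 210.0 scaled counts in Cmg2-KO libraries 1 to 5, against 179, 189, 159, 217 and 518 in WT libraries 1 to 5. Apart from WT 5, the WT libraries spanned 159 to 217 and overlapped the upper Cmg2-KO libraries. The means were 157 ± 40.9 in Cmg2-KO and 252 ± 150.2 in WT (SD, n = 5 each). Without WT 5 the WT mean was 186 ± 24.4 (n = 4), and the log2 fold change of -0.57 ± 0.31 (SE) became -0.27 ± 0.20. The authors' deposited table gave Rgs4 a p-value of 0.0327, or 0.661 adjusted.

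Rgs16, an inducible regulator of Gi and Gq signalling that cycles with the clock in the suprachiasmatic nucleus of mice, had 45.2, 80.8, 52.2, 87.9 and 75.9 scaled counts in Cmg2-KO libraries 1 to 5, against 67.0, 220, 130, 106 and 197 in WT libraries 1 to 5. WT 1 fell inside the Cmg2-KO range and the other 4 WT libraries lay above all Cmg2-KO libraries. The means were 68.4 ± 18.7 in Cmg2-KO and 144 ± 63.4 in WT (SD, n = 5 each), a ratio of 0.475. The log2 fold change was -0.98 ± 0.33 (SE) and did not hang on WT 5, being -0.84 without it. The authors' deposited table gave Rgs16 the lowest p-value of the 6, 0.00075 (0.123 adjusted), at rank 120 of 1319 listed genes.

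Rgs17 and Rgs20 were near the limit of counting. Rgs17, which acts on Gz and Gi, had 1.74, 0, 0, 0.945 and 1.04 scaled counts in Cmg2-KO libraries 1 to 5, against 9.14, 1.04, 3.33, 7.08 and 1.05 in WT libraries 1 to 5. Its reads came to 4 over 5 Cmg2-KO libraries (exact Poisson 95% interval 1.09 to 10.2) and to 14 over 4 WT libraries (7.65 to 23.5). That is 0.8 reads per Cmg2-KO library and 3.5 reads per WT library. The WT total leaves out WT 4, whose 7.08 scaled counts, at 1.01 to a read, were exceeded only in WT 1. WT 1 and WT 4 held most of the WT signal, while WT 2 and WT 5 lay inside the Cmg2-KO range. The log2 fold change was -1.42 ± 0.55 (SE).

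Rgs20, the relative of Rgs17 with the same preference for Gz and Gi, had 0.869, 0.879, 0, 0.945 and 1.04 scaled counts in Cmg2-KO libraries 1 to 5, against 5.08, 4.15, 0, 2.02 and 6.31 in WT libraries 1 to 5. Every nonzero Cmg2-KO value is 1 read. Reads came to 4 over 5 Cmg2-KO libraries (1.09 to 10.2) and to 15 over 4 WT libraries (8.40 to 24.7). The WT total again leaves out WT 4, with its 2.02 scaled counts. A count of 0 allows up to 3 reads, or 3.13 scaled counts in Cmg2-KO 3 and 3.33 in WT 3, so these libraries cannot be placed below the others. These intervals cover counting error only.

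The log2 fold change of Rgs20 was -1.13 ± 0.54 (SE). For both low genes the size rests on the treatment of low counts: with a pseudocount of 5 the log2 fold changes were -0.62 for Rgs17 and -0.51 for Rgs20, and on the reads of 9 libraries edgeR gave -2.10 for Rgs17 and -2.20 for Rgs20. The authors' deposited table gave -2.53 for Rgs17 and -2.22 for Rgs20, with p-values of 0.0261 for Rgs17 and 0.0452 for Rgs20 (0.610 and 0.736 adjusted). Rgs20 was thus the member nearest to the table's threshold, and no Rgs gene beyond it was analysed here.

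**Figure D1:**
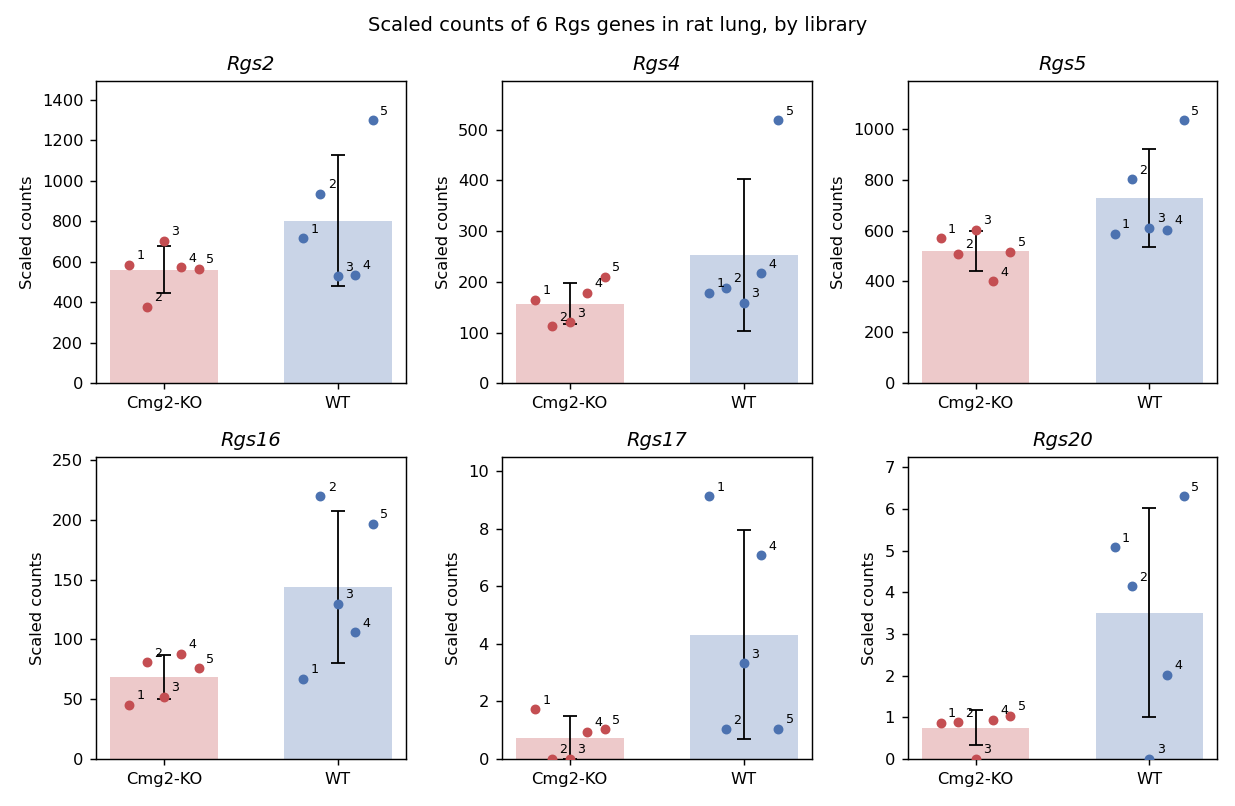
Scaled counts of the 6 Rgs genes by library, with Cmg2-KO (red, left) and WT (blue, right); points are libraries numbered 1 to 5, bars are means and error bars are SD (n = 5). WT 5 stands highest for Rgs2, Rgs4, Rgs5 and Rgs20, with 518 for Rgs4 where the other WT libraries span 159 to 217, and Rgs17 and Rgs20 stay below 10 everywhere.

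The plot of scaled counts by library shows that a single WT library took the highest value for most of the genes. WT 5 was the highest of the 10 libraries for 4 of the 6, and it was the highest for 22.3% of the 683 listed genes with a lower mean log2 level in Cmg2-KO. WT 2 was the highest for Rgs16 and WT 1 for Rgs17. At the low end, Cmg2-KO 2 was lowest or tied for lowest for 3 of the 6, namely Rgs2, Rgs4 and Rgs17. The spread was wider in WT than in Cmg2-KO for every member, with log2 SDs between 0.35 and 1.16 in WT and between 0.23 and 0.66 in Cmg2-KO. How many listed genes share this was not counted. Without WT 5 the SD of scaled counts was narrower in WT for Rgs4 (24.4, against 40.9 in Cmg2-KO) and still wider in WT for the other members. For Rgs17 and Rgs20 the Cmg2-KO spread comes from 0 to 2 reads per library.

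Leaving out each library in turn kept all 6 differences below 0. The log2 fold change ran from -0.59 to -0.26 for Rgs2, from -0.70 to -0.27 for Rgs4 and from -0.53 to -0.33 for Rgs5, and in each the value nearest to 0 was the one without WT 5. For Rgs16 it ran from -1.23 without WT 1 to -0.80 without WT 2. It ran from -1.69 to -1.11 for Rgs17 and from -1.60 to -0.88 for Rgs20. For Rgs20 too, the value nearest to 0 was the one without WT 5. The plot of these values sets the libraries side by side.

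**Figure D2:**
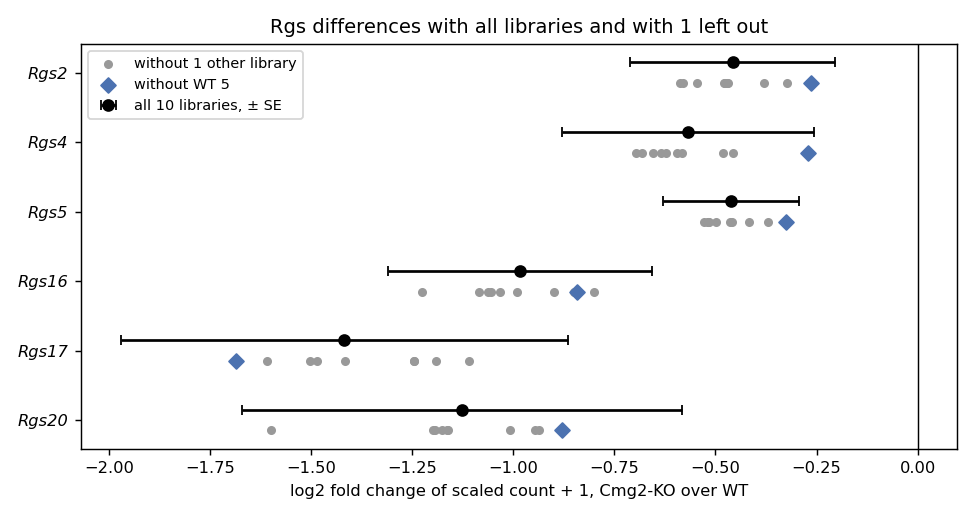
Log2 fold change of scaled count + 1 (Cmg2-KO over WT, horizontal axis) for each Rgs gene, with all 10 libraries (black, ± SE), without WT 5 (blue diamonds) and without each other library (grey points). Every point lies below 0, and leaving out WT 5 brings Rgs2 to -0.26 and Rgs4 to -0.27.

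Per kilobase of the gene length in the authors' table, Rgs2 and Rgs5 were the most abundant of the 6. Rgs2 stood at 647 ± 134 scaled counts per kilobase in Cmg2-KO and 926 ± 372 in WT, and Rgs5 at 635 ± 94.3 in Cmg2-KO and 889 ± 234 in WT (SD, n = 5). These 2 levels differed by less than their spread in both genotypes. Rgs4 followed at 53.9 ± 14.02 in Cmg2-KO and 86.5 ± 51.5 in WT, then Rgs16 at 27.8 ± 7.58 in Cmg2-KO and 58.5 ± 25.8 in WT. Rgs4 and Rgs16 lay farther apart than their SDs in Cmg2-KO, while in WT their SDs overlapped. Rgs17 at 0.299 ± 0.299 in Cmg2-KO and 1.74 ± 1.46 in WT, and Rgs20 at 0.256 ± 0.145 in Cmg2-KO and 1.20 ± 0.861 in WT, did not differ beyond their spread. The order of the 6 was the same in both genotypes.

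Whether the genes varied together inside a genotype was not itself asked by their selection, but the answer is not independent of it. The same library values entered both, and WT 5 was the highest library for 4 of the members. Without WT 5 the log2 fold change went from -0.46 to -0.26 for Rgs2 and from -0.57 to -0.27 for Rgs4. How far the selection shaped the correlations was not tested. Each library's deviation from its genotype mean on the log2 scale was correlated between members over the 10 libraries, with an exact two-sided permutation test that shuffled libraries within genotypes (14400 shuffles). Of 15 pairs, 10 had a positive and 5 a negative Pearson r, and 0 passed a Benjamini-Hochberg adjusted p of 0.05 (lowest adjusted p = 0.245). By unadjusted p, 2 were under 0.05. All 5 negative values involved Rgs17, and the 10 pairs without it had r between 0.18 and 0.75.

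Rgs2 and Rgs5, the most abundant members, had the highest r of 0.75 (exact permutation p = 0.0326, adjusted p = 0.245), with a Spearman rho of 0.70 (exact permutation p = 0.0445). Among 1318 other listed genes, Rgs5 ranked 17th by likeness to Rgs2 and Rgs2 ranked 18th by likeness to Rgs5. Pearson r was 0.50 without WT 5, 0.73 without WT 2 and 0.20 without both, the libraries farthest from the median of Rgs2, so the value rests on those libraries together. The neighbours Rgs4 and Rgs5 had an r of 0.52 (exact permutation p = 0.187, adjusted p = 0.498) and a rho of 0.19 (exact permutation p = 0.631), and r was -0.34 without WT 5 and Cmg2-KO 2.

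Rgs16 and Rgs17 had the lowest r of -0.76 (exact permutation p = 0.0317, adjusted p = 0.245), with a rho of -0.76 (exact permutation p = 0.0344). Pearson r was -0.44 without WT 2 and WT 5. WT 2 and WT 5 had the most Rgs16 and 1 read each of Rgs17, and WT 1 had the least Rgs16 of the WT libraries and the most Rgs17. Since Rgs17 had at most 9 reads in any library where reads were recovered, its values move in steps of single reads. The matrix of pairwise values shows the rest.

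**Figure D3:**
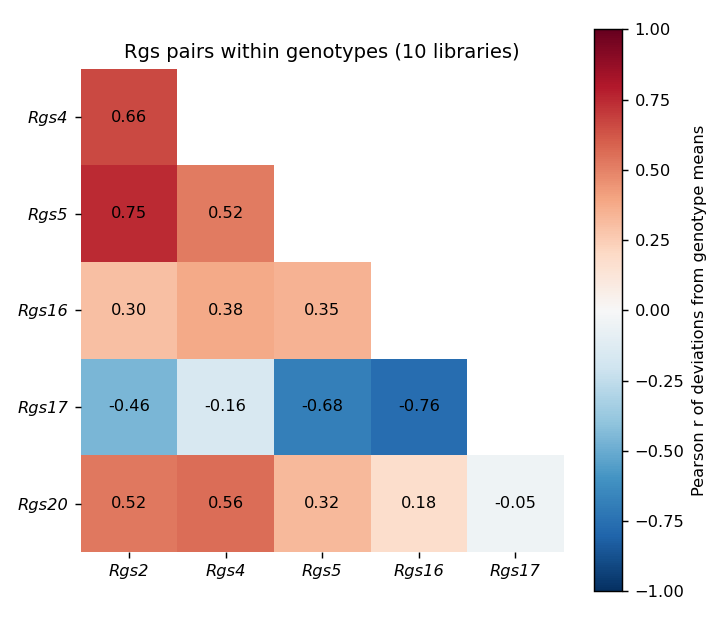
Pearson r of each pair of Rgs genes over 10 libraries, after subtracting each genotype's mean on the log2 scale; red is positive, blue negative. Rgs2 and Rgs5 reach 0.75, the row and column of Rgs17 are negative down to -0.76 with Rgs16, and no pair passed the adjusted threshold.

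The genes whose within-genotype deviations were most like each member were taken from 884 listed genes with a mean of at least 20 scaled counts, 3 per member, as a description without a test. For Rgs2 these were Slco1a2, an organic anion transporter (r = 0.91), Scg5 (0.87) and Bcl2l14 (0.83). For Rgs4 they were Slc41a3 (0.92), the membrane-bending protein gene Ehd2 (0.89) and Nat8f3 (0.89). For Rgs5 they were Ciart, a circadian repressor of transcription (0.91), Fance of the Fanconi anaemia pathway (0.87) and Bcl2l14 again (0.86). For Rgs16 they included Cipc, which encodes a CLOCK-interacting pacemaker protein (0.93), and Tspan4 (0.90).

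Among these, Ciart had 16.5, 21.1, 25.1, 8.51 and 19.8 scaled counts in Cmg2-KO libraries 1 to 5, against 13.2, 40.4, 34.4, 23.3 and 144 in WT libraries 1 to 5, so WT 5 was far above the rest here too. Cipc averaged 703 ± 31.5 in Cmg2-KO and 840.4 ± 107 in WT (SD, n = 5). Some of these genes differed the other way between the genotypes. Scg5 was higher in Cmg2-KO, at 46.9 ± 6.73 against 26.7 ± 14.6 in WT, and so was Ehd2, at 8440 ± 119 against 7254 ± 610. For the low genes, the closest included Ankmy1 (0.88) and Bpifb1 (0.85) for Rgs17 and Lasp1 (0.84) and Ckap2 (0.83) for Rgs20, on values of few reads.

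Lists of other modulators, G protein subunits, effectors and receptors held 186 symbols, some for the same gene, such as Grk2 and Adrbk1. Of these symbols, 9 were listed. That is 4.84%, near the 6.63% listed of all genes in the authors' adjustment, and nothing is read from the count. They were 6 higher and 3 lower in Cmg2-KO, where 48.2% of all listed genes were higher. Of the 9, 1 passed the adjusted threshold in the authors' deposited table, where 5.46% of listed genes did, so nothing is read from that count. For other modulators, such as receptor kinases and arrestins, the count was 0 of 26 symbols. Among 33 subunits the alpha subunit gene Gna15 alone was listed, at 487 ± 81.6 in Cmg2-KO and 383 ± 65.4 in WT (SD, n = 5), and its log2 fold change was 0.34 ± 0.14 (SE).

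Of 84 receptors, 4 were listed. Bdkrb2, the Gq-coupled bradykinin receptor, had 40.8, 59.7, 46.0, 76.57 and 43.7 scaled counts in Cmg2-KO libraries 1 to 5, against 144, 86.1, 76.59, 115 and 149 in WT libraries 1 to 5. All Cmg2-KO libraries lay below all WT libraries, narrowly between Cmg2-KO 4 and WT 3, a pattern shown by 7.05% of the listed genes. The log2 fold change of Bdkrb2 was -1.07 ± 0.24 (SE). Bdkrb2 was the gene past the adjusted threshold, with 0.0093 in the authors' deposited table, while in limma 0 of the 9 passed. The others were higher in Cmg2-KO. Ptgdr2, a prostaglandin D receptor, stood at 87.1 ± 9.46 in Cmg2-KO and 61.4 ± 11.6 in WT. Hrh1, a histamine receptor, stood at 14.8 ± 5.11 in Cmg2-KO and 5.92 ± 4.33 in WT, and Ednra, an endothelin receptor, at 3189 ± 203 in Cmg2-KO and 2624 ± 517 in WT (SD, n = 5). The log2 fold change of Ednra was 0.30 with all libraries and 0.17 without WT 2.

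Of 43 effector symbols, 4 were listed, 2 higher and 2 lower. The inositol trisphosphate receptor Itpr3 averaged 904 ± 126 in Cmg2-KO and 1104 ± 72.5 in WT (SD, n = 5), and the adenylyl cyclase Adcy5 had a log2 fold change of -0.22 ± 0.10 (SE). Phospholipase Plcb3 was higher by 0.10 ± 0.05 on the log2 scale. The small GTPase Rhoa was higher by 0.06 ± 0.03, a difference that turned to -0.17 under quantile normalization. That setting fixes each value by its rank within the library. The immediate early and stress response list had 0 of 32 members among the listed genes, where 6.63% of all adjusted genes were listed.

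Rgs5 marks pericytes and vascular smooth muscle, and only those markers of these cells that the same contrast had selected could be analysed. For pericytes 2 of 15 markers were listed, Rgs5 itself and Lamc3, a laminin chain. Lamc3 lay between 106 and 187 in Cmg2-KO and between 195 and 240 in WT (log2 fold change -0.50 ± 0.15 SE). Its Cmg2-KO libraries all lay below its WT libraries, a pattern shown by 7.05% of the listed genes. Of 20 smooth muscle markers 10 were listed, where 6.63% of all genes in the authors' adjustment were. All 10 had a lower mean log2 level in Cmg2-KO, where 51.8% of listed genes did. Their median log2 fold change was -0.48, beside -0.15 over all listed genes. Sums ran from 25410 to 37809 in Cmg2-KO and from 30714 to 50417 in WT. The same contrast chose these markers, so nothing is read from the counts. Myosin heavy chain Myh11 averaged 7375 ± 1517 in Cmg2-KO and 10577 ± 2112 in WT (SD, n = 5). Of these markers, 0 passed 0.05 after adjustment by limma (0.229% of tested genes passed) or in the authors' deposited table (5.46% of listed genes passed). None was at 0 in any library. Their part in the lower Rgs levels was not tested beyond correlations within genotypes.

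Of 21 clock and clock-output genes 6 were listed, Usp2, Hlf, Ciart, Per2, Cry2 and Per3, and the others were not analysed here. Of all genes in the authors' adjustment 6.63% were listed. All 6 clock genes had a lower mean log2 level in Cmg2-KO, where 51.8% of listed genes did. After adjustment 0 passed 0.05 by limma (0.229% of tested genes passed) or in the authors' deposited table (5.46% of listed genes passed). Their median log2 fold change was -0.87, beside -0.15 over all listed genes. Sums ran from 1544 to 2548 scaled counts in Cmg2-KO and from 2093 to 6395 in WT. The same contrast chose these genes, so nothing is read from the counts. Per2, a core clock repressor, had 354 to 629 scaled counts in Cmg2-KO, against 2254 in WT 5 and 466 to 1072 in the other WT libraries. Its log2 fold change was -0.87 with all libraries and -0.53 without WT 5. The part of the clock genes in the Rgs levels was not tested beyond the correlations given next.

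The relation of each member to the mean log2 level of the listed smooth muscle, clock and mesothelial genes was added after the values had been seen. Over 18 relations, 0 passed an adjusted p of 0.05 (lowest adjusted p = 0.436, exact permutation within genotypes) and 1 had an unadjusted p under 0.05. Rgs5 had an r of 0.70 with the clock genes (exact permutation p = 0.0578, adjusted p = 0.436, rho 0.68 with p = 0.0618), and r was 0.48 without WT 5 and WT 3. Rgs2 had an r of 0.66 with them (exact permutation p = 0.0969, adjusted p = 0.436, rho 0.70 with p = 0.0506), and r was 0.68 without those libraries. For Rgs4 the value was 0.65 (exact permutation p = 0.141, adjusted p = 0.490, rho 0.21 with p = 0.605), which was 0.13 without WT 5 and WT 3. Rgs16 had an r of 0.49 with the clock genes (exact permutation p = 0.279, adjusted p = 0.507, rho 0.24 with p = 0.577), Rgs17 of -0.58 (exact permutation p = 0.163) and Rgs20 of 0.004 (exact permutation p = 0.994).

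With smooth muscle, Rgs5 had an r of -0.61 (exact permutation p = 0.0825, adjusted p = 0.436, rho -0.65 with p = 0.0624), a negative sign, while between the genotypes both were lower in Cmg2-KO. Rgs17 had an r of 0.72 with smooth muscle, the lowest unadjusted p of the 18 (exact permutation p = 0.0303, adjusted p = 0.436). Its rho was 0.57 (exact permutation p = 0.0813), and r was 0.62 without Cmg2-KO 3 and Cmg2-KO 2. The relations of the 6 genes to the mesothelial list, with r between -0.47 and 0.42, had unadjusted p-values of 0.215 or more (exact permutation).

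**Figure D4:**
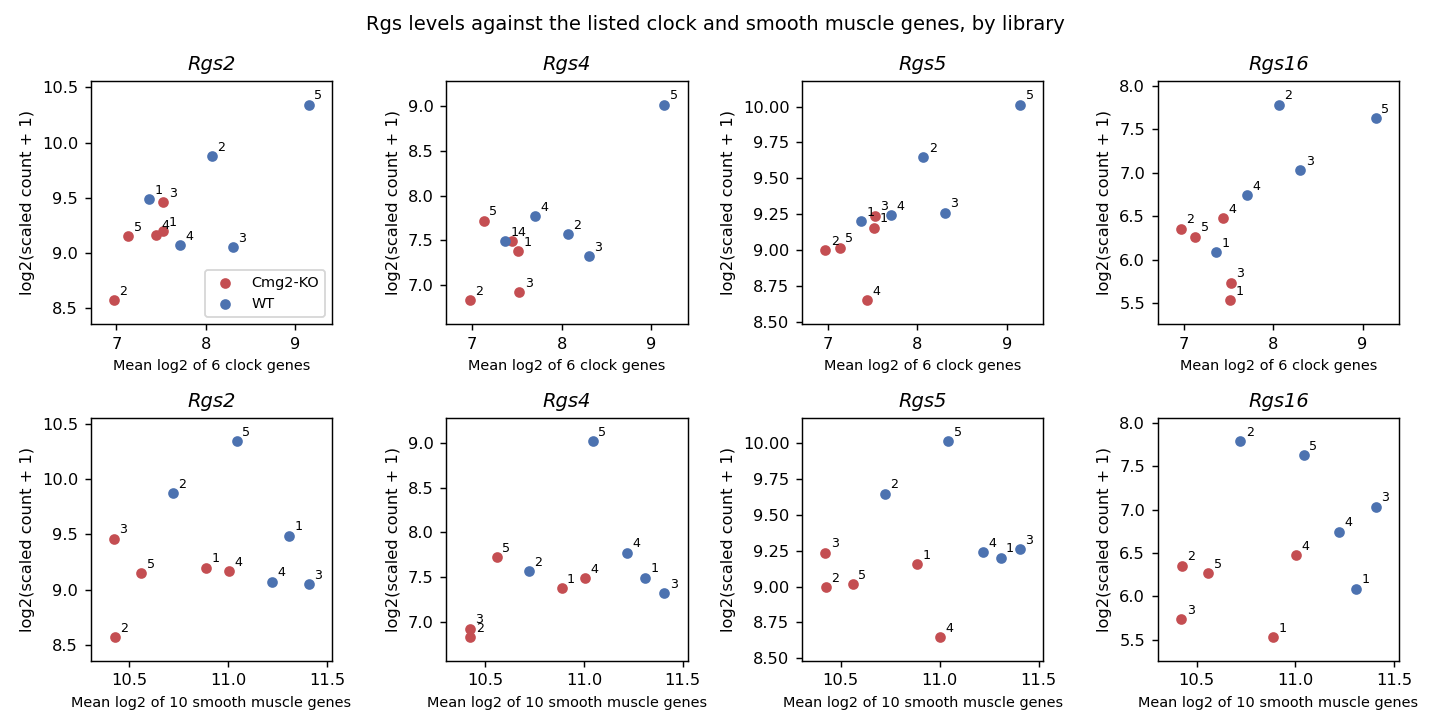
Level of Rgs2, Rgs4, Rgs5 and Rgs16, as log2 of scaled count + 1 (vertical axes), against the mean log2 level of the 6 listed clock genes (top) and the 10 listed smooth muscle genes (bottom), with Cmg2-KO in red, WT in blue and library numbers beside the points. WT 5 is at the top right in the clock panels of Rgs2, Rgs4 and Rgs5, whereas in the smooth muscle panels it is in the middle of the horizontal axis.

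Markers of other cell types were among the listed genes as well. Of all genes in the authors' adjustment 6.63% were listed, and of the listed genes 51.8% were lower and 48.2% higher in Cmg2-KO. The same contrast chose these markers, so nothing is read from their counts. Of 15 fibroblast markers 3 were listed, Dcn, Pi16 and Fmo2, all lower, with sums from 7944 to 13300 scaled counts in Cmg2-KO and from 13530 to 24506 in WT. Of 10 mesothelial markers 6 were listed, all higher, with sums from 3777 to 6966 in Cmg2-KO and from 3166 to 5676 in WT. Of 12 airway epithelial markers 4 were listed, all lower, with sums from 84396 to 176966 in Cmg2-KO and from 144340 to 196851 in WT. Quantile normalization left Scgb1a1 among these with a log2 fold change of 0, which an unchanging rank gives by construction. For neuronal and neuroendocrine cells, where Rgs17 and Rgs20 are best known, 3 of 18 markers were listed: Prph and Scg5 were higher and Scg2 lower, with sums from 295 to 542 in Cmg2-KO and from 128 to 394 in WT, and Scg2 reached 0 in Cmg2-KO. Endothelial markers counted 3 of 17, with 2 higher, B and plasma cell markers 3 of 12, all higher, myeloid markers 1 of 15, and T and NK lymphocyte markers 0 of 18. The part of these cell types in the Rgs levels was not tested, except for the mesothelial correlations above.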

How the data were processed

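Per the labels' protocols, Trizol RNA of frozen lung went into libraries made with the NEBNext Ultra kit. Strand is not stated, so overlapping or antisense genes may share reads. The submitters' processing notes name HISAT2 2.0.5 and featureCounts 1.5.0-p3. Neither the genome build nor the tool behind the authors' tests is given in the sources used here.

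The deposited table held 1319 genes with p under 0.05 (127 without a symbol). Its library values are a signal, the authors' counts divided by a size factor, of which 100% were whole reads within 0.02 reads in 9 libraries. Whole reads were not taken for WT 4, where 1 read was worth 1.01. The deposited table also gives the authors' log2 fold change, fold ratio and p-values. A Benjamini-Hochberg adjustment over 19894 genes gives back the deposited adjusted p-values of 1313 genes and misses 6 (relative tolerance 0.01). The listed genes are 6.63% of those.

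In R 4.3.3, limma 3.58.1 with its trend and robust settings was fitted to log2(scaled count + 1) of 1308 genes above 0.5 in at least 5 libraries, among them all 6 Rgs genes, adjusted over 19894. The plan named edgeR for raw counts of all genes, and the table held scaled values of selected genes. Alternatives covered pseudocount, filter, scaling, edgeR 4.0.16 and DESeq2 1.42.0 on the reads of 9 libraries, a replicate block and leaving out each library. Correlations used Python 3.11.15 and were, like the fits, tested on simulated data. The members and lists were chosen with earlier results of these data known. Named genes were the 6 members, 3 genes per member by likeness, listed members of the signalling lists and up to 4 of other lists, for symbols other than provisional names. Some genes that this rule takes by likeness are not reported here. Samples were grouped by their genotype label. The design text names a higher number of replicates than the 5 a genotype used here.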

Additional observations from a re-analysis of the deposited data

Results flagged for a closer look

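Dixon's criterion for 5 values picks out a library whose gap to its nearest neighbour exceeds 0.71 of the range of its genotype. Of 12 groups, 2 were picked out, where chance at 1 in 20 gives about 0.6. Rgs4 in WT 5 stood at 518 scaled counts while the other WT libraries lay between 159 and 217, a gap of 0.735 of the range. Rgs20 in Cmg2-KO 3 stood at 0 while the other Cmg2-KO libraries lay between 0.869 and 1.04, a gap of 0.878 of the range. For Rgs20 this is the step between 0 reads and 1 read.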

How the results depend on the processing

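All 6 Rgs genes were lower in Cmg2-KO under every alternative that was run. The same contrast chose them, so their direction is not counted as support. With the replicate block, and without the filter on low values, the log2 fold changes equal the reported ones by construction. Those values are included in the next count. Of 114 log2 fold changes of the members under alternatives, 112 stayed within 1 SD of the reported value and 0 changed sign. The other 2 were those of Rgs20 on the reads of 9 libraries, -2.20 in edgeR and -2.37 in DESeq2. Without WT 5, Rgs2 and Rgs4 came to -0.26 and -0.27. For the other named genes and all listed members of the gene lists, 1210 of 1216 values stayed within 1 SD and 1 changed sign, Rhoa at -0.17 under quantile normalization. That setting also left Scgb1a1, Sftpb and Plvap with a log2 fold change of 0. It swaps each value for a level fixed by the gene's position within its library. An unchanging position forces a difference of 0, so these values do not show that the differences vanished. The sign of Rhoa under that setting likewise rests on position only. Among all tested genes, 3 passed limma's adjusted threshold (1035 by unadjusted p), against 5 with quantile normalization, 1 with edgeR and 51 with DESeq2 on the reads of 9 libraries, which leave out WT 4, and between 1 and 6 without each library in turn. None of these counts is about the Rgs genes, whose contrast chose them. The count of member pairs past the adjusted threshold was 0 in every alternative. The r of Rgs2 and Rgs5 ran from 0.50 without WT 5 to 0.88 over the leave-one-out runs, and that of Rgs16 and Rgs17 from -0.90 to -0.63. Same-numbered libraries deviated together only weakly, with correlations from -0.016 to 0.087, and 2 of 5 correlated best with their own number. These values do not show a pairing by number and cannot exclude one. With the replicate block 0 genes passed among all tested (limma, 899 by unadjusted p), and 0 of 15 Rgs pairs passed (lowest adjusted p = 0.319, exact permutation, 0 by unadjusted p). Total depth is unknown, and a few reads per library limit Rgs17 and Rgs20.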
